A study of Mus musculus with 20 samples.

Results

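Fkbp5 encodes FKBP51, a co-chaperone that joins Hsp90 in the complexes holding steroid hormone receptors before they bind hormone. Its signal was read from 1 probe set, the only one whose single annotated symbol is Fkbp5 among 12422 probe sets (8251 genes) that were not array controls, on an Affymetrix mouse array hybridised with RNA of 20 whole prostates. All mice were C57/B6 of 10 to 12 weeks, with no transgene or targeted allele named. The 4 groups, of 5 mice each with 1 array per mouse, were mice castrated for 14 days and then given a 15 mg testosterone pellet for 3 days (testosterone group), mice castrated for 14 days, mice castrated for 3 days, and sham-treated mice. The comparisons ask how the intact, regressing and regrowing prostate differ. Whole prostates pool the lobes, and castration removes the testes while adrenal hormones remain.

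FKBP51 belongs to the immunophilins, which bind immunosuppressive drugs and isomerise proline bonds, and it docks on Hsp90 through tetratricopeptide repeats. In mammalian cells it lowers the hormone affinity of the glucocorticoid receptor, whereas its close relative FKBP52 (Fkbp4) raises receptor activity. In human prostate cancer cells FKBP51 takes part in the androgen receptor complex. The gene is itself a well-known target of the androgen, glucocorticoid and progesterone receptors, and the hormone response elements described in human FKBP5 lie mainly in introns.

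The stretch of 250 bases before the annotated start of Fkbp5 is shown because the gene's signal moved with androgen supply, and that of Sec13 because its signals followed those of Fkbp5 most closely of all genes tested. Both come from RefSeq (build GRCm38.p6; the array files name no build), are read 5′ to 3′ on the minus strand, and lie at chr17:28486150-28486399 for Fkbp5 and chr6:113740682-113740931 for Sec13. Capitals mark GC boxes (GGGCGG, the core of Sp1 binding sites) and CCAAT boxes (CCAAT), each on either strand.
Fkbp5: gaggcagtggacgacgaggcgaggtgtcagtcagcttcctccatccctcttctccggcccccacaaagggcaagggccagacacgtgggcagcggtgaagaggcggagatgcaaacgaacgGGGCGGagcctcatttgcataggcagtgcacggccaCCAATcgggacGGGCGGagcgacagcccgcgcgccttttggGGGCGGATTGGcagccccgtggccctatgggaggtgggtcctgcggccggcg
Sec13: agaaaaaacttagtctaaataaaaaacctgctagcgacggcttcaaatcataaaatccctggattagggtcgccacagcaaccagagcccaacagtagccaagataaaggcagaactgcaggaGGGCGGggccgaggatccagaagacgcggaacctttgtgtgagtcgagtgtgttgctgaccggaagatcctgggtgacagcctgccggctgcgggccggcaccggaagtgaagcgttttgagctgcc
The Fkbp5 window held 68.0% G and C, against a median of 52.4% over 32851 promoter windows of this length. It contained 3 GC boxes, starting 129, 82 and 52 bases before the gene's start, and 2 CCAAT boxes, starting 93 and 46 bases before it, with no overlap between the motifs. A GC box was present in 32.7% and a CCAAT box in 33.8% of all windows. The Sec13 window held 54.4% G and C and 1 GC box. Neither window contained AGAACA, the half-site of the androgen and glucocorticoid response element, on either strand, or the full palindrome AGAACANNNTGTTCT. The half-site was present in 16.1% and the palindrome in 0.00913% of all windows. Elements in introns or farther upstream were not searched. These matches describe letters in the windows only.

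Fkbp5 was highest after testosterone, lowest in both castrated groups and intermediate in sham mice. In the testosterone group the signal was 2919.5, 3319.8, 3371.2, 3443.7 and 3175.0, a mean of 3246 ± 207 (SD, n = 5). In mice castrated for 14 days it was 760.5, 590.8, 843.2, 737.7 and 683.5, a mean of 723 ± 93.7. These groups lay far apart, with no castrated mouse near any treated one. In mice castrated for 3 days the signal was 879.6, 945.5, 810.7, 976.9 and 897.2, a mean of 902 ± 64.0. In sham mice it was 2521.3, 2003.7, 1485.4, 1528.4 and 1196.6, a mean of 1747 ± 521. The sham group was the most scattered, with replicate 1 highest and replicate 5 lowest.

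**Figure D1:**
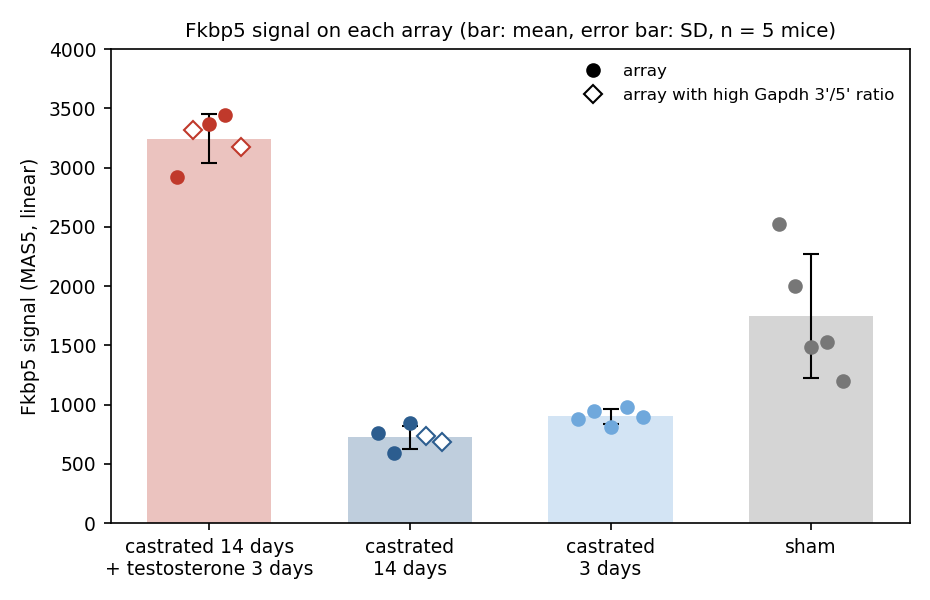
Fkbp5 signal (MAS5, linear scale) on each of 20 arrays, with the group mean as a bar and the SD as an error bar (n = 5 mice per group). Open diamonds mark the 4 arrays with a high Gapdh 3′/5′ ratio. The testosterone arrays (2919.5 to 3443.7) lie above all sham arrays (1196.6 to 2521.3), and every castrated array (590.8 to 976.9) lies below them.

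Since the gene was chosen for this pattern, its differences from sham and between testosterone and castration are given as sizes without a test. On the scale of log2(signal + 12.7), Fkbp5 was −0.90 ± 0.15 (SE) at 3 days of castration relative to sham, a level 1.86-fold lower. Every SE of Fkbp5 comes from 1 estimate of spread shared by the 4 groups, so it does not show the wider scatter of the sham mice. At 14 days it was −1.22 ± 0.15 relative to sham, or 2.33-fold lower. No castrated array reached the lowest sham array, which exceeded the highest 3-day array by 219.7 signal units. Lower arrays without overlap were found for 4.82% of the 5372 tested genes at 3 days and for 15.8% at 14 days. After testosterone Fkbp5 was 2.15 ± 0.15 above the 14-day castrated level, or 4.45-fold higher. It was also 0.93 ± 0.15 above sham, or 1.91-fold higher, and the lowest treated array exceeded the highest sham array by 398.2 signal units. Higher arrays without overlap were found for 13.1% of genes against 14 days of castration and for 16.3% against sham.

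Most of the 14-day difference from sham was present by day 3. The mean signal was 845 below sham at 3 days and 1024 below it at 14 days, so that 82.5% of the later difference was seen at the earlier time. Between the castrated groups the change was −0.32 ± 0.15, lower at 14 days (95% confidence interval −0.63 to −0.01). This difference did not pass the adjusted threshold (limma, adjusted p = 0.0897 over all probe sets tested), although an exact two-sided permutation test on this gene alone over 252 splits gave p = 0.0159, with 0.00794 the smallest p possible. One array of the 14-day group lay above the lowest array of the 3-day group. The adjusted p was under 0.05 in only 3 of 31 alternative settings. These were the fits without sham replicate 1 (0.0357), of the 2 castrated groups alone (0.0224), and with arrays weighted by quality (0.0131). Sham replicate 1 enters through the shared estimate of spread. At most the adjusted p was 0.213, without replicate 2 of the 14-day group, and it was 0.208 without the 4 arrays of high Gapdh 3′/5′ ratio.

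The mice also differed in how far they scattered. The SD of log2 Fkbp5 signal was 0.09 in the testosterone group, 0.19 at 14 days, 0.10 at 3 days and 0.41 in sham mice. The median SD of all tested genes was 0.22 with testosterone, 0.19 at 14 days, 0.15 at 3 days and 0.22 in sham mice. In sham mice the SD of Fkbp5 stood at percentile 86.6 of all genes, and in testosterone-treated mice at percentile 6.40. Without sham replicate 1 the changes against sham were 1.08 for testosterone, −1.08 at 14 days and −0.75 at 3 days. Replicates differed in RNA quality as well. On 4 arrays, 2 of the testosterone group (replicates 2 and 5) and 2 of the 14-day castrated group (replicates 4 and 5), the log2 ratio of the 3′ to the 5′ Gapdh control probe sets was 1.82 to 4.54, against −0.53 to −0.08 on the other 16. The Fkbp5 signals of these 4 arrays, 3319.8 and 3175.0 with testosterone and 737.7 and 683.5 at 14 days, lay inside the ranges of the other arrays of their groups. Without them Fkbp5 was 2.14 higher with testosterone than at 14 days of castration. The mean log2 Gapdh ratio was 1.81 higher with testosterone than in sham mice, 0.91 higher than at 14 days, and 0.90 higher at 14 days than in sham mice. Exact two-sided permutation tests of the Gapdh and actin ratios gave no adjusted p under 0.423, but with 252 splits (smallest p 0.00794) a single difference cannot pass after adjustment over 10 comparisons, so these tests do not show that RNA quality was alike. Titles number the arrays in an order that goes with the groups, so a batch along that order cannot be told apart from treatment.

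Summed signals of cell type markers, which were not tested, also differed between the samples. In whole-tissue RNA, fewer cells of a type and less RNA per cell cannot be told apart. As a check of the tissue label, probasin (Pbsn), a secretory protein of the rodent prostate, was bright in every group, at 10013 ± 1268 with testosterone, 4903 ± 854 at 14 days, 15179 ± 305 at 3 days and 16904 ± 1569 in sham mice. The summed signal of 10 luminal epithelial markers on the array (of 11 listed) overlapped between groups, at 49895 to 58238 with testosterone, 46404 to 69380 at 14 days, 57822 to 65874 at 3 days and 49658 to 60824 in sham mice. This sum counts Pbsn, which was lower at 14 days than in sham mice, so the overlap does not show that luminal content was alike. Among the luminal markers, 4 of 10 were called higher and 1 lower at 14 days than in sham mice (limma, adjusted p under 0.05), beside 30.4% and 23.8% of all genes. The summed signal of 10 smooth muscle markers followed the same order of groups as Fkbp5. It was 46921 to 50979 with testosterone, 22237 to 29037 at 14 days, 25891 to 36115 at 3 days and 33651 to 41193 in sham mice. Actg2, counted in this sum and among the 10 genes most like Fkbp5, averaged 11020 ± 1102 with testosterone and 3442 ± 1552 in sham mice. Of the 10 markers, 4 were called higher with testosterone than in sham mice (limma, adjusted p under 0.05), beside 24.6% of all genes. At 14 days 5 were called lower than sham and 1 higher, beside 23.8% and 30.4%. Macrophage and myeloid markers (11 of 11) ran another way, at 4705 to 6934 with testosterone, 10897 to 18618 at 14 days, 5502 to 6483 at 3 days and 2206 to 2782 in sham mice. Seminal vesicle markers (5 of 8 on the array) were present in every group, at 40479 to 52296 with testosterone, 3179 to 32161 at 14 days, 41782 to 58653 at 3 days and 49567 to 71962 in sham mice. The basal markers Krt5 (8.6 to 96.9) and Krt14 (5.9 to 109.4) were near background on all arrays, while Trp63 averaged 313 ± 23.4 with testosterone, 448 ± 81.8 at 14 days, 288 ± 46.7 at 3 days and 250.4 ± 48.7 in sham mice. The part of these shifts in the Fkbp5 result was not tested.

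Of 5372 genes, 30 (0.558%) were called lower than sham at both 3 and 14 days and higher than sham after testosterone (limma, adjusted p under 0.05 in each), the pattern by which Fkbp5 had been chosen. In 5 of them (0.0931% of genes), namely Pgk1, Fkbp5, Sec13, H2-Q10 and Apof, no array overlapped between sham and any other group in these comparisons. Pgk1 encodes a glycolytic kinase, Sec13 a coat protein of vesicles leaving the endoplasmic reticulum, H2-Q10 a secreted class I molecule and Apof a lipoprotein component. Fkbp5 is counted among the 30 and the 5 through that choice, so its place there is no test of it. By the size of the rise over sham Fkbp5 stood 9th of the 30. The 10 of highest mean signal, by which the genes to name were picked, were Uqcrq, Ppib, Ssr3, Cd52, Actg2, Slc35b1, Aldh1a1, Ostc, Pgap2 and Pgk1. Ppib, Ssr3, Slc35b1 and Ostc encode proteins of the endoplasmic reticulum that fold, translocate, supply or glycosylate secreted proteins. Rises over sham among the 10 were from 0.30 ± 0.12 for Ppib to 1.77 ± 0.25 for Actg2, an actin of visceral smooth muscle. The count was 21 without sham replicate 1, 17 of them among the 30, while leaving out the 4 arrays with a high Gapdh ratio gave 29, with 20 among the 30. Of the 10 just named, Ssr3 was in the pattern under all 31 alternative settings. Ppib left it in 16 of them, Ostc in 10, Actg2 and Pgap2 in 9 each, Uqcrq and Aldh1a1 in 6 each, Pgk1 in 2, and Cd52 and Slc35b1 in 1 each. Without sham replicate 1 those that left were Uqcrq, Actg2, Aldh1a1 and Ostc, while omitting the 4 arrays of high Gapdh ratio removed Ppib, Cd52, Uqcrq, Aldh1a1 and Ostc.

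**Figure D2:**
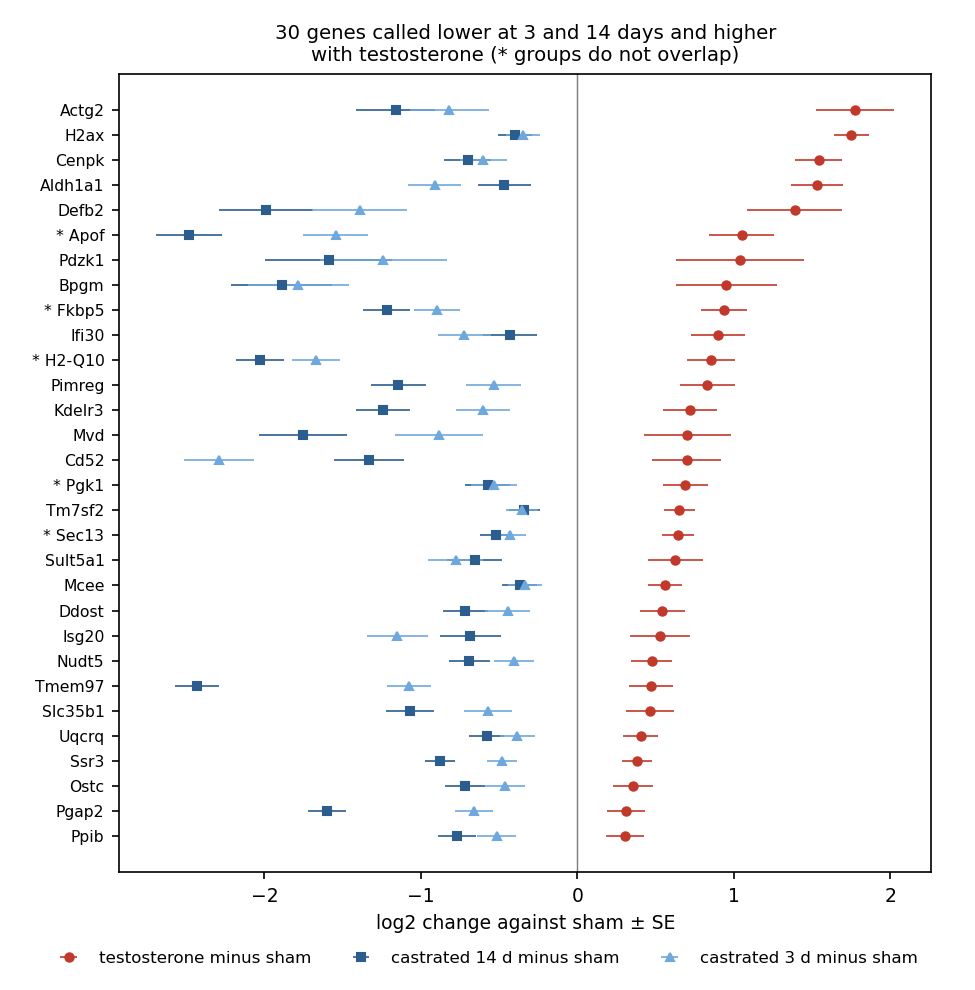
Log2 change against sham with its SE (horizontal axis) for the 30 genes called lower at 3 and 14 days of castration and higher after testosterone, ordered by the rise over sham. Circles show testosterone, squares castration for 14 days and triangles castration for 3 days; an asterisk marks the 5 genes without overlap between arrays. Fkbp5 stands 9th at 0.93 over sham.

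Likeness to Fkbp5 over the 20 arrays was measured by Pearson's r of log2 signals. Values of r are descriptive: the arrays fall into 4 groups, so r mostly follows the group means. Of 5371 other genes 34 had r above 0.9, and the median was −0.15. The 10 highest were Sec13 (0.968), Ssr3 (0.959), Bpgm (0.955), H2-Q10 (0.955), Kdelr3 (0.950), Ddost (0.950), Apof (0.947), Actg2 (0.945), Odc1 (0.943) and Nudt5 (0.936). Without the 2 arrays whose Fkbp5 lay farthest from the median, both of the testosterone group, these values were 0.922 to 0.961. The probe sets of Kdelr3 and H2-Q10 (suffix _s_at) and Actg2 (suffix _f_at) can also read related transcripts.

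Sec13 signals were 2107.5, 2299.2, 2320.2, 2269.5 and 2655.0 with testosterone and 1103.5, 1069.8, 956.2, 991.4 and 1031.5 at 14 days. They were 1091.6, 1111.4, 1107.7, 1087.5 and 1072.4 at 3 days and 2022.7, 1490.0, 1345.9, 1360.8 and 1286.8 in sham mice. As with Fkbp5, sham replicate 1 was the highest sham array. On the log2 scale Sec13 was 1.17 ± 0.10 higher with testosterone than at 14 days of castration, where Fkbp5 was 2.15 ± 0.15 higher. As genes chosen for their likeness to Fkbp5 share its pattern by that choice, their changes are given without a test. Bpgm, which makes bisphosphoglycerate in red cells, averaged 2960 ± 491 with testosterone, 404 ± 79.2 at 14 days, 434 ± 76.4 at 3 days and 1887 ± 1610 in sham mice, where replicate 1 alone had 4698.9. Odc1, the first enzyme of polyamine synthesis and a known androgen target in mouse tissues, averaged 842 ± 142 with testosterone, 321 ± 16.4 at 14 days, 422 ± 23.0 at 3 days and 524 ± 137 in sham mice. Its change at 3 days was −0.27 ± 0.13 relative to sham.

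**Figure D3:**
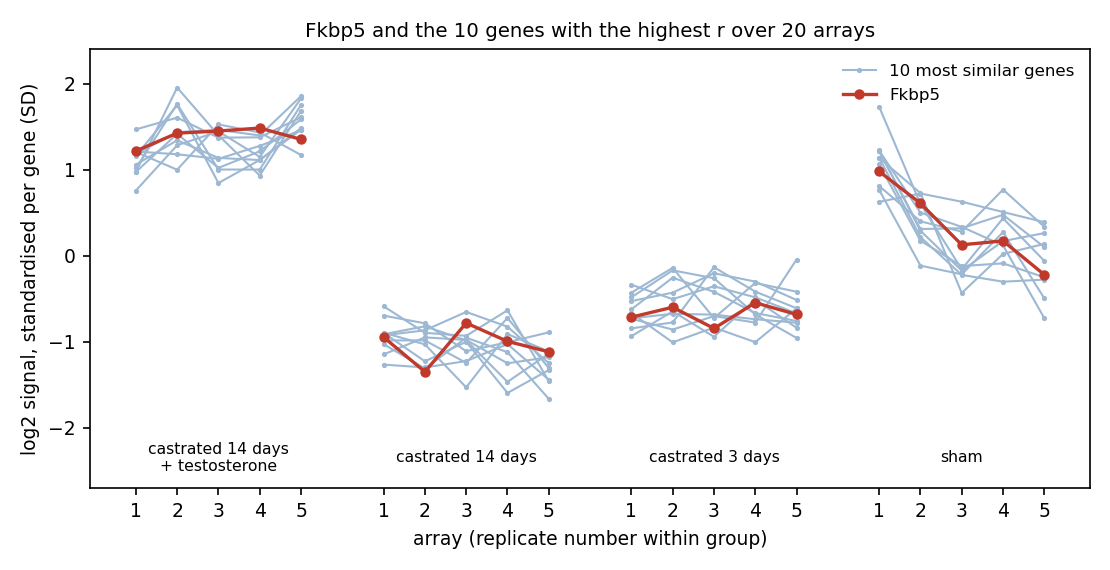
Log2 signal standardised per gene (in SD over the 20 arrays) for Fkbp5 (red) and the 10 genes with the highest r (blue), by array within each group. Lines join the arrays of one gene within a group, and the order of arrays has no meaning. The group means of all 11 genes are highest with testosterone, lower in sham mice and lowest in both castrated groups, but single sham arrays of some genes reach the testosterone range, and sham replicate 1 of Bpgm (4698.9) lies above its testosterone arrays.

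After the group means were removed, the deviations of single mice were correlated instead. The highest r with Fkbp5 were those of Aldh1a7 (0.803), Cdc45 (0.773), Fkbp9 (0.770) and Pla2g4a (0.754), and the other 6 of the leading 10 (Cited2, Aldh1a1, Bpgm, Ap3m1, Gnpnat1 and Pclaf) had 0.738 to 0.753. Sham replicates 1 and 5, the mice with the highest and lowest sham signal, carried much of this. Without them r was 0.619 for Aldh1a7, 0.602 for Cdc45, 0.334 for Fkbp9 and 0.591 for Pla2g4a, and 0.153 to 0.468 for the other 6. Aldh1a7, an aldehyde dehydrogenase, had 716.8 in sham replicate 1 and 140.8 to 338.6 in the other sham mice.

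The other FKBP genes did not share one direction. Of 17 listed members 11 were on the array, and 9 besides Fkbp5 passed the filter on low signal. Fkbpl, a relative with tetratricopeptide repeats, did not, with signals of 57.3 to 205.8. At 3 days against sham none of the 9 was called by limma in either direction, with 1 higher and 2 lower at an unadjusted p under 0.05, where 10.5% of all genes were called higher and 4.65% lower. At 14 days against sham 4 rose and 3 fell, against 30.4% and 23.8% of all genes. From 3 to 14 days 2 rose and 3 fell, against 21.4% and 19.9%. Among these, the fall of Fkbp4 (brighter probe set, limma, adjusted p = 0.049) lost its call in 19 of 31 alternative settings. The rise of Fkbp9 (0.0469) lost its call in 18 of them. With testosterone over 14 days of castration 3 rose and 2 fell, against 18.7% and 27.8%. Against sham, testosterone gave 3 higher and 2 lower, against 24.6% and 28.6%. Centring each array on its median, with Fkbp5 counted in, gave 2 higher and 5 lower at 14 days (4 and 4 without centring), 6 and 1 with testosterone over 14 days (4 and 2) and 4 and 0 over sham (4 and 2). Fkbp5 adds to the lower count at 14 days and to the higher counts with testosterone by its choice. No share of all genes was computed with centring, here or for the lists below. With so few members these counts are a description only. The median change of the family, Fkbp5 left out, was 0.12 for testosterone over castration for 14 days, where the median of all genes was −0.11. For testosterone over sham it was −0.19, against −0.07. Relative to sham it was 0.03 at 3 days, against 0.04, and −0.05 at 14 days, against 0.04. From 3 to 14 days it was −0.08, against 0.

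Fkbp4, the FKBP52 co-chaperone without which male mice form an incomplete prostate, was read by 2 probe sets (suffixes _f_at and _r_at), both of which can read related sequences. The brighter one averaged 4907 ± 353 with testosterone, 3792 ± 270 at 14 days, 4590 ± 235 at 3 days and 5696 ± 1211 in sham mice. It fell by 0.57 ± 0.11 on the log2 scale at 14 days (limma, adjusted p = 0.000242), and the dimmer one by 0.92 ± 0.15 (5.3e-05). With testosterone over 14 days they were 0.37 ± 0.11 (0.00892) and 0.22 ± 0.15 (0.253) higher, and the first call was lost after quantile normalization (0.408). Over sham they were −0.19 ± 0.11 (0.14) and −0.70 ± 0.15 (0.000829). Within arrays, the log2 ratio of Fkbp5 to Fkbp4 was 1.78 (first probe set) and 1.93 (second) higher with testosterone than at 14 days, and 1.13 and 1.63 higher than in sham mice. No test was made of this ratio. Fkbp8, a mitochondrial member with tetratricopeptide repeats, had 757.2 and 1830.4 on testosterone replicates 2 and 5 and 2549.5 to 2793.9 on the other 3. Its change over sham of −0.67 ± 0.24 (0.0271) was no longer called without the 4 arrays of high Gapdh ratio (0.153), without sham replicate 5 (0.0627) or without testosterone replicate 5 (0.051).

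Fkbp11, a secretory-pathway member of the endoplasmic reticulum, came closest to Fkbp5 in its return. Its signals were 2359.3, 2992.8, 3060.4, 2386.0 and 3475.6 with testosterone and 815.9, 915.7, 654.9, 1143.6 and 260.8 at 14 days. They were 2581.2, 2524.3, 2206.4, 2054.4 and 1732.9 at 3 days and 5240.2, 3276.9, 3488.1, 4114.8 and 3208.2 in sham mice. Testosterone and 14-day arrays did not overlap, and the change of 2.03 ± 0.27 (limma, adjusted p = 6.08e-06) was close in size to the 2.15 of Fkbp5. It fell by 2.45 ± 0.27 at 14 days (4.54e-07), and its 3-day change of −0.79 ± 0.27 did not pass (0.0594). It was not called different from sham after testosterone, at −0.43 ± 0.27 (0.192), where Fkbp5 was at 0.93. The difference between the genes was not tested. Fkbp2, also of the endoplasmic reticulum, fell by 0.93 ± 0.18 at 14 days (0.000311) and rose by 0.76 ± 0.18 with testosterone (0.00226).

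Fkbp7 and Fkbp9, which act in the same compartment, went the other way at 14 days. Fkbp7 averaged 277 ± 64.4 with testosterone, 385 ± 49.4 at 14 days, 173 ± 33.5 at 3 days and 154 ± 25.4 in sham mice, and rose by 1.26 ± 0.15 at 14 days over sham (limma, adjusted p = 1.28e-06). It remained 0.78 ± 0.15 above sham with testosterone (0.000274), while its fall of −0.47 ± 0.15 against 14 days (0.0148) was lost with arrays centred on their medians (0.197). Fkbp9 was 0.40 ± 0.09 above sham with testosterone (0.00129) and 0.27 ± 0.09 at 14 days (0.017, lost with centring at 0.101 and without sham replicate 5 at 0.0571). Fkbp1a, the FKBP12 target of rapamycin, rose by 0.49 ± 0.10 at 14 days (0.00062) and 0.61 ± 0.10 with testosterone (8.94e-05), both over sham. Its paralogue Fkbp1b fell by 0.88 ± 0.15 with testosterone against 14 days (9.45e-05). Fkbp3, a nuclear member, was called in none of the 5 comparisons, with changes of −0.20 to 0.03.

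**Figure D4:**
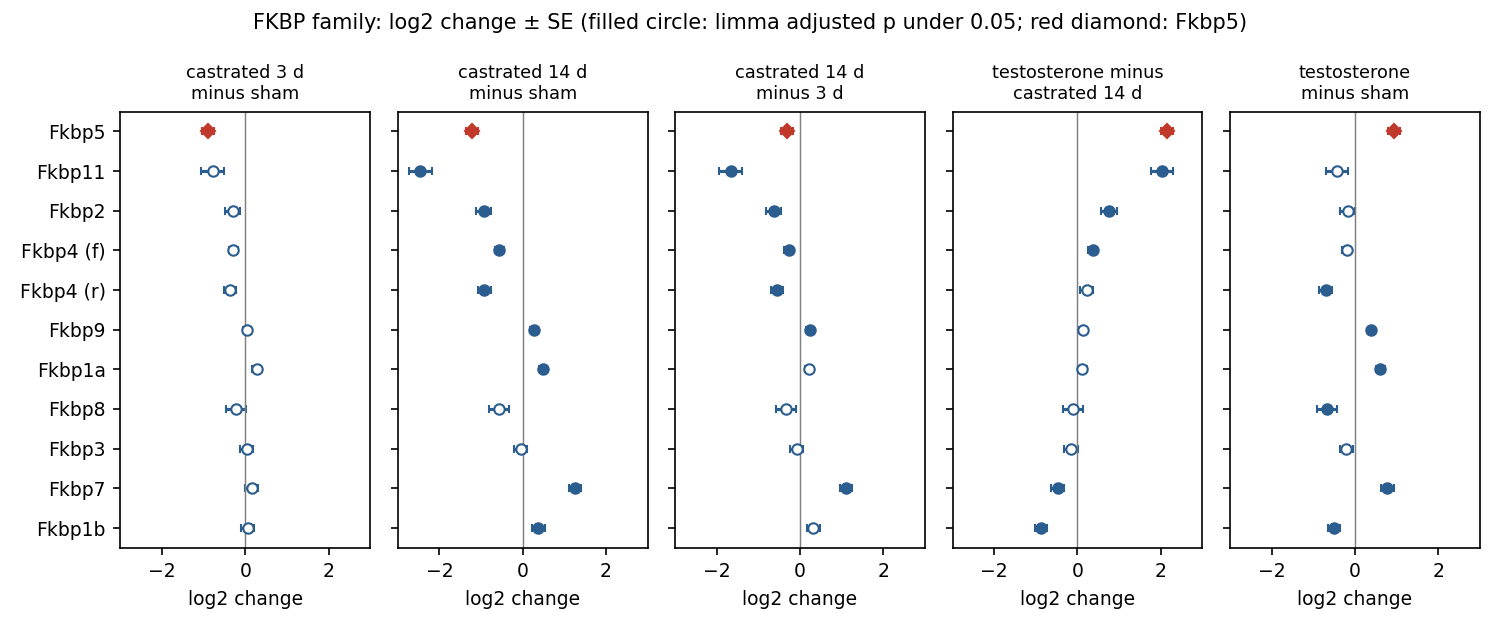
Log2 change with its SE for Fkbp5 (red diamonds) and the other FKBP probe sets (circles, filled where the limma adjusted p is under 0.05) in the 5 comparisons. Fkbp4 has 2 probe sets, marked f and r. Fkbp5 and Fkbp11 show the largest rises with testosterone over 14 days of castration (2.15 and 2.03), and against sham the testosterone group is at 0.93 for Fkbp5 and −0.43 for Fkbp11.

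Genes of the receptor machinery around FKBP51 were examined by list, with Fkbp5 left out. Of the steroid receptors, Nr3c1, Pgr, Esr1 and Esr2 had 7 probe sets with signals of 3.0 to 214.7, and none passed the filter. Androgen receptor probe sets were not analysed here. Among 33 Hsp90 and Hsp70 machinery genes, 1 rose at 3 days against sham and none fell (6 higher and 1 lower at an unadjusted p under 0.05). Of all genes 10.5% rose and 4.65% fell there. At 14 days against sham 9 rose and 7 fell, beside 30.4% and 23.8% of all genes. From 3 to 14 days 9 rose and 5 fell, beside 21.4% and 19.9%. With testosterone 4 rose and 4 fell against 14 days, beside 18.7% and 27.8%. Against sham 9 rose and 7 fell with testosterone, beside 24.6% and 28.6%. With arrays centred the testosterone counts were 9 higher and 3 lower against 14 days and 10 and 4 against sham. No share of all genes was computed for these centred counts. Ppid, the cyclophilin that docks on Hsp90 in the same position as FKBP51, averaged 663 ± 106 with testosterone, 1133 ± 132 at 14 days, 572 ± 42.2 at 3 days and 474 ± 77.9 in sham mice. It rose by 1.24 ± 0.12 at 14 days (limma, adjusted p = 7.24e-08) and fell by 0.77 ± 0.12 with testosterone (3.28e-05), opposite in sign to Fkbp5 in both. Hspa1a, the inducible Hsp70, likewise rose by 1.23 ± 0.19 (2.32e-05) and fell by 0.88 ± 0.19 (0.00077). Hspd1, a mitochondrial chaperonin, rose by 0.71 ± 0.12 with testosterone (8.07e-05). Hsp90aa1, the inducible Hsp90, was 0.86 ± 0.21 above sham with testosterone (0.00261), and its rise of 0.67 ± 0.21 over 14 days (0.0156) was lost after quantile normalization (0.101) and when the 4 arrays of high Gapdh ratio were left out (0.0709). Bag3, a co-chaperone of Hsp70, was 1.08 ± 0.17 above sham with testosterone (3.25e-05).

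Of 29 androgen receptor coregulators and partner factors, 3 rose and 1 fell at 3 days, where 10.5% of all genes rose and 4.65% fell, and 6 rose and 8 fell at 14 days, where 30.4% rose and 23.8% fell. From 3 to 14 days 7 rose and 10 fell, beside 21.4% and 19.9% of all genes. With testosterone 8 rose and 9 fell against 14 days and 5 rose and 13 fell against sham, beside 18.7% and 27.8% of all genes in the first comparison and 24.6% and 28.6% in the second. Centring the arrays moved the median of all genes by 0.20 and 0.17 in these last comparisons, and with it the counts to 8 higher and 3 lower against 14 days and 6 and 6 against sham. Centred counts were 1 higher and 1 lower at 3 days, and 4 and 10 from 3 to 14 days. The shares of all genes given here were taken without centring, so they are no measure for the centred counts. Nr2f1, an orphan receptor, rose by 1.72 ± 0.22 at 14 days (limma, adjusted p = 3.05e-06) and fell by 0.85 ± 0.22 with testosterone (0.00412). Fhl2, a coactivator of the androgen receptor, rose by 1.29 ± 0.12 at 14 days (5.08e-08) and stayed 1.42 ± 0.12 above sham with testosterone (2.53e-08). Gata2, which opens chromatin for the receptor, fell by 0.86 ± 0.12 at 14 days (8.69e-06), as did Pias2, a SUMO ligase, by 0.86 ± 0.11 (1.55e-06). Ncoa4 rose by 0.83 ± 0.13 with testosterone over 14 days (3.49e-05). Crebbp, an acetyltransferase, fell by 0.75 ± 0.11 (1.8e-05) in the same comparison, and Prmt1, an arginine methyltransferase, was 0.75 ± 0.09 above sham (1.2e-06).

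Fkbp5 is also a standard readout of the glucocorticoid receptor. Of 31 other glucocorticoid-responsive genes, 5 rose and 4 fell at 3 days (10.5% and 4.65% of all genes), 16 rose and 7 fell at 14 days (30.4% and 23.8%), and 13 rose and 11 fell between these times (21.4% and 19.9%). With testosterone 5 rose and 13 fell against 14 days (8 and 10 with arrays centred), and 7 rose and 12 fell against sham (8 and 9). The shares of all genes in these comparisons, taken only without centring, were 18.7% and 27.8% against 14 days and 24.6% and 28.6% against sham. The median change at 14 days was 0.41 against sham, where that of all genes was 0.04. Some members fell at 14 days, as Fkbp5 was lower there, but all 4 described next ended below sham after testosterone. The metallothionein Mt1 averaged 11124 ± 1601 with testosterone, 3506 ± 533 at 14 days, 14784 ± 1249 at 3 days and 18575 ± 2142 in sham mice. It fell by 2.41 ± 0.12 at 14 days (limma, adjusted p = 1.96e-11) and rose by 1.66 ± 0.12 with testosterone (2.45e-09), yet lay below sham at −0.74 ± 0.12 (4.98e-05). Mt2 fell by 2.17 ± 0.10 (3.51e-12) and rose by 1.76 ± 0.10 (5.13e-11), ending at −0.41 ± 0.10 (0.00144) relative to sham. This last call was lost with arrays centred on their medians (0.095). Zbtb16, a zinc finger repressor, fell by 1.34 ± 0.16 at 14 days (9.92e-07) and was 0.32 ± 0.16 higher with testosterone, which did not pass (0.104), and ended at −1.02 ± 0.16 (3.13e-05). Ddit4, an inhibitor of mTORC1, fell by 1.13 ± 0.15 (3.27e-06) and rose by 0.48 ± 0.15 (0.0118), ending at −0.65 ± 0.15 (0.00113). Gadd45b and Per2 moved opposite in sign to Fkbp5 at 14 days against sham and with testosterone against 14 days. The stress gene Gadd45b rose by 3.36 ± 0.25 at 14 days (2.3e-09) and fell by 2.52 ± 0.25 with testosterone (1.27e-07), ending 0.85 ± 0.25 above sham (0.0075). The clock gene Per2 rose by 2.18 ± 0.21 (1.01e-07) and fell by 2.52 ± 0.21 (2.13e-08), ending at −0.34 ± 0.21 relative to sham, which did not pass (0.189). Dusp1, a MAP kinase phosphatase, rose by 0.99 ± 0.14 at 3 days (9.12e-05), fell by 0.65 ± 0.14 from 3 to 14 days (0.00115) and was 0.01 ± 0.14 higher with testosterone than at 14 days (0.953).

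Called changes among androgen-responsive genes ran mostly in the direction of Fkbp5 after castration and on testosterone over castration. Of 34 tested besides it, 2 rose and 8 fell at 3 days (5 and 8 after quantile normalization), 7 rose and 17 fell at 14 days, and 4 rose and 15 fell between them. The shares of all genes, taken without quantile normalization, were 10.5% rising and 4.65% falling at 3 days. They were 30.4% and 23.8% at 14 days and 21.4% and 19.9% between them. With testosterone 17 rose and 5 fell against 14 days (18.7% and 27.8% of all genes), and 10 rose and 10 fell against sham (24.6% and 28.6%). The median change was −0.44 at 14 days, against 0.04 for all genes, and 0.23 with testosterone over 14 days, against −0.11. For testosterone over sham the median was −0.07, the same as that of all genes, so the list as a whole did not rise above sham as Fkbp5 did. The list was drawn up knowing earlier results of these samples and is no independent evidence of direction. Msmb, a secreted prostatic protein, averaged 7497 ± 1698 with testosterone, 134 ± 95.3 at 14 days, 1092 ± 582 at 3 days and 10523 ± 1727 in sham mice. It fell by 3.43 ± 0.45 at 3 days (limma, adjusted p = 5.4e-05) and lay at −6.49 ± 0.45 at 14 days (1.09e-09), both against sham, and rose by 5.99 ± 0.45 with testosterone (4.04e-09), to a level not called different from sham at −0.51 ± 0.45 (0.354). Cdo1, which oxidises cysteine, fell by 1.98 ± 0.20 at 3 days (2.7e-06) and returned by 2.55 ± 0.20 (6.64e-09), at 0.19 ± 0.20 over sham (0.445). Apof, also among the genes most like Fkbp5 and so given without a test, was at −1.54 ± 0.21 at 3 days and 1.05 ± 0.21 with testosterone, both against sham. Tmem97, a sterol-regulated membrane protein, fell by 1.08 ± 0.14 at 3 days (5.24e-05) and ended 0.47 ± 0.14 above sham (0.00868), which was lost without the 4 arrays of high Gapdh ratio (0.0649).

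Return to sham was not uniform within the list. Egf, the epidermal growth factor precursor, averaged 1041 ± 185 with testosterone, 1216 ± 605 at 14 days, 6607 ± 520 at 3 days and 6658 ± 1221 in sham mice, and after testosterone lay below sham at −2.66 ± 0.28 (limma, adjusted p = 4.03e-07). Azgp1, a secreted zinc-binding glycoprotein, rose by 1.65 ± 0.15 with testosterone over 14 days (5.31e-08) and remained below sham at −0.94 ± 0.15 (4.46e-05). Idi1 and Hmgcs1, enzymes of isoprenoid and sterol synthesis, ended 3.08 ± 0.27 (4.62e-08) and 1.59 ± 0.14 (2.93e-08) above sham. They were not called lower than sham at 3 days, at −0.73 ± 0.27 (0.0856) and 0.31 ± 0.14 (0.146). The luminal keratin Krt8 rose by 0.96 ± 0.14 at 14 days (8.5e-06).

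Proteins whose activity FKBP51 is known to alter, such as kinases, phosphatases, tau and factors of the NF-kappaB pathway, formed the last list of 27 genes. At 3 days 2 rose and none fell (4 higher and 3 lower at an unadjusted p under 0.05), and at 14 days 6 rose and 7 fell, both against sham, where the shares of all genes were 10.5% and 4.65% at 3 days and 30.4% and 23.8% at 14 days. From 3 to 14 days 5 rose and 5 fell (5 and 8 with arrays centred), beside 21.4% and 19.9% of all genes. With testosterone 2 rose and 7 fell against 14 days (4 and 4 centred), beside 18.7% and 27.8% of all genes. Against sham 2 rose and 9 fell (3 and 7 centred), beside 24.6% and 28.6%. All shares of all genes were taken without centring. Relb, a subunit of NF-kappaB, averaged 179 ± 57.7 with testosterone, 462 ± 54.2 at 14 days, 263 ± 46.3 at 3 days and 263 ± 87.9 in sham mice. It rose by 0.85 ± 0.22 at 14 days (limma, adjusted p = 0.00304) and fell by 1.35 ± 0.22 with testosterone (4.97e-05). Its inhibitor Nfkbia rose by 0.69 ± 0.10 (1.38e-05) and fell by 0.85 ± 0.10 (1.53e-06). Mapt, which encodes tau, rose by 1.57 ± 0.27 (8.79e-05) and fell by 1.72 ± 0.27 (4.26e-05), and the nerve markers (9 of 10 on the array) summed to 546 to 1168 with testosterone, 1941 to 2660 at 14 days, 641 to 1663 at 3 days and 1038 to 1584 in sham mice, a shift whose part in this was not tested. Traf2, an adaptor of tumour necrosis factor receptors, rose by 0.49 ± 0.12 at 3 days (0.00801) and 0.78 ± 0.12 at 14 days (1.68e-05). Cdk4, a cell cycle kinase, was 0.55 ± 0.09 above sham with testosterone (6.48e-05), and Ppp3ca, a calcineurin catalytic subunit, fell by 0.59 ± 0.11 at 14 days (0.000136).

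**Figure D5:**
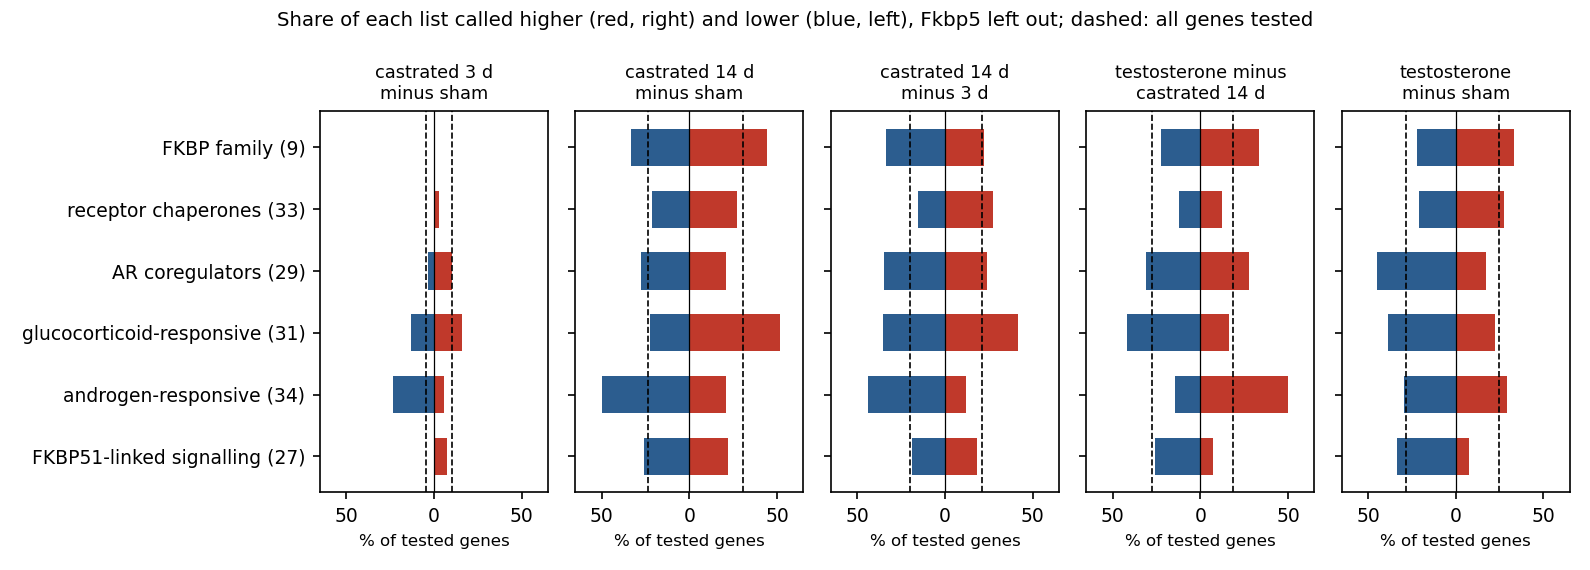
Share of tested genes of each list called higher (red, to the right) and lower (blue, to the left) at a limma adjusted p under 0.05, in percent, for the 5 comparisons, with Fkbp5 left out and the number of genes tested in brackets. Dashed lines give the share of all 5372 genes. The androgen-responsive list lies beyond the line on the lower side at 14 days of castration (17 of 34 genes) and on the higher side with testosterone over it (17 of 34). Other lists also pass a line. The glucocorticoid-responsive list does so on the higher side at 14 days (16 of 31) and on both sides from 3 to 14 days (13 and 11 of 31).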

How the data were processed

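RNA of 20 whole mouse prostates was hybridised to 1 array each. The deposited values are intensities, 1 linear signal per probe set, made with MAS5 version 5.0 per the submitters' processing notes, and scanner settings are not given in the sources used here. Groups came from the labels, which state 5 mice per group and name no batches or pairs. The trimmed mean signal was 500.2 to 500.3 on every array, so the arrays had been scaled alike. Precision rests on the number of arrays.

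The 66 array controls among 12488 probe sets were not tested. The platform annotation gave 10833 of the remaining 12422 a single symbol, 396 more than 1 and 1193 no symbol. Signals were analysed as log2(signal + 12.7), the 10th percentile of all values being added, with no further normalization. A probe set was tested if its signal exceeded 190.8, the median over the table, on 5 or more arrays (6913, or 55.7%), and each of 5372 genes was represented by its probe set of highest mean. The added constant makes the log2 change of dim genes too small. One linear model of the 4 groups was fitted with limma 3.58.1 (R 4.3.3) and moderated variances, and p-values were adjusted by the Benjamini-Hochberg method over all probe sets of a comparison. A change was called at an adjusted p under 0.05. The model was tested on simulated data. The difference between the castrated groups was also tested for Fkbp5 alone by exact permutation (Python 3.11.15, SciPy 1.17.1). The other Fkbp5 differences had been part of choosing the gene and were not tested, apart from its inclusion in the count of pattern genes.

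The members and all lists were chosen with earlier results of these data known. Named genes were all measured FKBP family members and steroid receptors, a choice from up to 4 called genes per direction, comparison and list with the largest change, the 10 genes most like Fkbp5 by r over arrays and by r of deviations from group means, and 10 genes of the same pattern with the highest mean signal. Alternatives changed the added constant, the normalization, the filter, the samples in the model, array weights, the variance model and the arrays kept.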

Additional observations from a re-analysis of the deposited data

Results flagged for a closer look

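Within a group, a single array was set apart when its gap to the nearest other array took more than 0.71 of the group's range (Dixon's critical value for 5 arrays). Chance marks about 1 in 20 groups in this way. Among 68 of the genes named, 14 of 272 gene-by-group sets were marked, close to the share that chance marks, and Fkbp5 was not among them. The marked sets are listed as a description only.

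In 6 of them sham replicate 1, the sham mouse with the highest Fkbp5 signal, was the highest of 5. It had 2022.7 for Sec13 (next highest 1490.0), 4698.9 for Bpgm (1642.0), 1115.9 for Kdelr3 (663.8), 4850.5 for Aldh1a1 (2646.0), 6464.5 for Slc35b1 (4666.5) and 4521.2 for Ostc (3418.1). All 6 genes belong to the pattern genes or to those most like Fkbp5. Sec13, Bpgm, Kdelr3 and Aldh1a1 were picked because they followed Fkbp5 over these same arrays. A high sham replicate 1 in these genes is therefore in part fixed by that choice.

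Replicate 5 of the mice castrated for 3 days was the highest of its group for Fkbp1a (3308.1), Bag3 (729.8), Fhl2 (481.1) and Actg2 (2970.8). Single sham arrays stood apart for Fkbp7 (replicate 4, lowest at 110.5), Ppp3ca (replicate 4, highest at 3356.7) and Mapt (replicate 5, highest at 260.3). Among mice castrated for 14 days, replicate 3 was highest for Ap3m1 (521.4).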

How the results depend on the processing

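The Fkbp5 log2 changes kept their sign under all 31 alternatives, at 0.81 to 1.10 for testosterone against sham, 2.08 to 2.35 for testosterone against 14 days of castration, −1.34 to −1.07 for 14 days against sham and −1.02 to −0.75 for 3 days against sham. The change of 14 against 3 days, −0.32, passed the threshold in 3 settings, with only these groups in the model (−0.32, adjusted p = 0.0224), with array weights (−0.34, 0.0131) and without sham replicate 1 (−0.32, 0.0357). Leaving out 1 array at a time gave −0.38 to −0.25, and the adjusted p over all alternatives was 0.0131 to 0.213. The setting without sham replicate 1 and the 4 arrays of high Gapdh ratio, and the counts of pattern genes, were chosen after seeing the data. The count of genes with the Fkbp5 pattern, 30, was 20 to 34 when 1 array was left out (20 without sham replicate 3 and without 3-day castrated replicate 3), 28 with arrays centred on their medians and 37 with array weights. Of 2170 list counts under the alternatives, 2034 were within 1.5 times the reported count. Centring raised testosterone changes by 0.20 against 14 days and 0.17 against sham. No paired analysis was possible because each mouse gave 1 array and the labels name no pairs. The labels give no replicate numbers, and those used here follow the order of the arrays within a group. MAS5 signals carry no depth, and genes near background, such as the steroid receptors, were not measured well enough to test.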

Other observations

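The remaining marker lists show what else differed between the whole prostates in which Fkbp5 was read. Summed adipocyte markers (8 of 10 on the array) were 1675 to 2235 with testosterone, 5085 to 9551 at 14 days of castration, 1577 to 3865 at 3 days and 1016 to 2785 in sham mice, so that the 14-day arrays lay above all others. Endothelial markers (9 of 10) were 2206 to 2801 with testosterone, 3483 to 4066 at 14 days, 2296 to 3134 at 3 days and 1723 to 2556 in sham mice, with the same group on top. Lymphocyte markers (10 of 12) were 1147 to 1793 with testosterone, 2120 to 6273 at 14 days, 1410 to 2006 at 3 days and 1139 to 1566 in sham mice.

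Fibroblast markers (10 of 10) were 19558 to 25454 with testosterone, 23684 to 30279 at 14 days, 19889 to 25354 at 3 days and 14414 to 15959 in sham mice, where every array lay below those of the other groups. Basal epithelial markers (9 of 10) were 1942 to 2411 with testosterone, 2494 to 3552 at 14 days, 2200 to 2589 at 3 days and 1668 to 1980 in sham mice. Skeletal muscle markers (11 of 11) scattered widely, at 12057 to 27752 with testosterone, 3031 to 26129 at 14 days, 2185 to 4962 at 3 days and 4048 to 16700 in sham mice. Urothelial markers (3 of 6) were 585 to 1188 with testosterone, 836 to 1114 at 14 days, 525 to 614 at 3 days and 455 to 789 in sham mice. None of these sums was tested.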
